A study of Saccharomyces cerevisiae with 59 samples.

Results

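Of the 5590 budding yeast genes listed in the tables, 691 had a coding span under 500 bp, taken as the end minus the start of the gene. They were compared with the 2958 genes of 1000 to 3000 bp. The coding spans of the short genes ran between 51 and 499 bp, with a median of 345 bp, against a median of 1590 bp in the genes of 1000 to 3000 bp. GOT1, which acts in vesicle transport, and MMS2, a partner of a ubiquitin-conjugating enzyme in DNA repair, lay just inside the limit at 499 bp. BUD20, an export factor of the large ribosomal subunit, and IES6, a subunit of the INO80 chromatin remodeller, lay just outside it at 501 bp. Of the short genes, 240 had no name other than their systematic one (34.7%), against 10.4% of the genes of 1000 to 3000 bp.

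The cells were of a W303 strain of mating type a (MATa) that carried BAR1::TRP, URA3::BrdU-Inc and can1-100, with the auxotrophic alleles ade2-1 and his3-11,15 and a double allele of leu2. They were held in G1 with 50 ng/mL α-factor, the mating pheromone of the other cell type, and released into fresh medium. Chromatin cut with micrococcal nuclease (MNase, 30 libraries) and total RNA (29 libraries) were sampled in 2 biological replicates. The tables hold 15 aligned time points, the arrest (0 min) and 10 to 140 min after release. All groups share this strain and the arrest, and the labels of the second MNase replicate at 10 min conflict on whether it was taken before or after release. Each table has 1 column per time point that merges the replicates, so the values below carry no standard deviation, no n and no test. RNA at 110 min is 1 library. The columns at 20, 30, 80 and 90 min are taken as S phase, when the core histone genes are transcribed. The depth behind single genes is not known from the tables. RNA is given as the deposited value, named TPM by the authors, which is scaled to length and to the library.

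Small genes in yeast code for some of the most abundant proteins of the cell, such as the smaller ribosomal proteins and the histones, and for small subunits of large complexes. They also include precursors of peptides, among them the a-factor pheromone, and many spans that were annotated late or only on the base of expression or conservation. In a gene body, nucleosomes lie in an array that starts downstream of the transcription start site (TSS), and a gene this short has room for only a few of them. MNase digests the linker DNA, so that the fragments that remain mark where nucleosomes sat.

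The coding sequences of the smallest members show how little sequence the measurements rest on, and they are given from the RefSeq R64 reference, 5′ to 3′. RPL41A (chrIV:130407-130484, minus strand) and RPL41B (chrIV:221724-221801, minus strand) encode the same small ribosomal protein of 25 residues, and over their 78 bases they differ at 1 position, shown in capitals.
RPL41A: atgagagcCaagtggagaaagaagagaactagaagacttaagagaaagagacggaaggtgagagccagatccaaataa
RPL41B: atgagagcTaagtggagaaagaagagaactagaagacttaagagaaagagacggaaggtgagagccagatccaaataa
The shortest listed gene, YJR151W-A (chrX:717580-717630, plus strand), is 51 bases long. It is shown with the start and stop codons in capitals.
YJR151W-A: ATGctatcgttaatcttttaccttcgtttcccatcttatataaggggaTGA
The pair of a-factor precursor genes follows in the same form, MFA1 (chrIV:1385176-1385286, plus strand) with 111 bases and MFA2 (chrXIV:352414-352530, plus strand) with 117 bases.
MFA1: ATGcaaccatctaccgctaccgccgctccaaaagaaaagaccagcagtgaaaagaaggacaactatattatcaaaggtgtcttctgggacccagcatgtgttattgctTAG
MFA2: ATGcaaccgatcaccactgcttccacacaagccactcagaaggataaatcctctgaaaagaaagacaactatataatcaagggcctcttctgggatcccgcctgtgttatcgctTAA
The near-identity of RPL41A and RPL41B matters for the counts. Only 16.7% of the 25-base stretches within the coding span of each occur once in the reference genome. The MNase fragments were kept only where they mapped to a single place. They were read from both ends, which can lie outside so short a span, so the share does not measure how well they map. Of the short genes, 42 had under 90% of such unique stretches (6.08%), against 71 genes of 1000 to 3000 bp (2.40%). For these genes the values are uncertain.

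Short genes had more RNA than genes of 1000 to 3000 bp at the median, and they were spread more widely at both ends. The mean RNA value over the 15 time points had a median of 65.3 in short genes, 36.8 in genes of 1000 to 3000 bp and 42.6 in all listed genes. On the log2(value + 1) scale the medians of the short genes and of the genes of 1000 to 3000 bp differed by 0.81. Percentiles 10 and 90 of the short genes were 0.844 and 703, against 9.83 and 192 for the genes of 1000 to 3000 bp. The distributions overlapped over most of their length. The size of this difference depends on the length that the RNA was divided by, which is not given in the sources used here. The distance from the TSS to the polyadenylation site (PAS) had a median of 517 bp in short genes and 1807 bp in genes of 1000 to 3000 bp, so that untranslated sequence makes up more of a short transcript. Had the reads of the whole transcript been divided by the coding length alone, the difference after correction would be 0.42.

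At the high end, 56 short genes had a mean RNA value over 1000 (8.10%), against 34 genes of 1000 to 3000 bp (1.15%) and 3.11% of all listed genes. Of these 56 genes, 24 encode cytosolic ribosomal proteins. RPL41A had the highest mean of all short genes, with values between 16539 and 28811 over the 15 time points, a median of 21635 and a mean of 22188. Its copy RPL41B had values between 6114 and 10130 with a median of 7979. CCW12, a mannoprotein of the cell wall, had values between 9456 and 16483 with a median of 15091. RPS31, which encodes ubiquitin fused to a ribosomal protein of the small subunit, had values between 6351 and 13731 with a median of 11025. YDR524C-B, a gene of 201 bp without another name, reached the same order of level, with values between 6215 and 12095 and a median of 10442. RPL32, a protein of the large ribosomal subunit, had values between 6187 and 10810 with a median of 8763. None of these 6 genes spanned more than 2.16-fold over the time course, on the scale of value + 1.

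At the low end, 75 short genes had a mean RNA value under 1 (10.9%), against 40 genes of 1000 to 3000 bp (1.35%) and 2.65% of all listed genes. Of the 44 listed genes with a value of 0 at any time point, which are 0.787% of all, 42 were short. The other 2, ECM23 and HXT13, were named after their values were seen. HMRA2, YOL166W-A and YPR159C-A were listed at 0 at every time point, and were likewise singled out afterwards. HMRA2 is a silent copy of mating type sequence, and none of its 25-base stretches occurs once in the reference. MF(ALPHA)1, a gene of 498 bp for the precursor of α-factor, was also picked after its values were seen, and had a mean of 0.510 and a value of 0 at 1 time point. MATa cells do not normally transcribe it.

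Low values were more frequent where the listed TSS was the upstream end of the coding span. The part of the annotation in them was not tested. In 136 short genes the listed TSS was the upstream end of the coding span (19.7%), against 227 genes of 1000 to 3000 bp (7.67%). No untranslated sequence before the coding span is then listed. These 136 genes had a median mean RNA of 1.31, and 108 of them had no other name. The remaining 555 short genes had a median of 94.2. Of the 42 short genes with a 0, 34 had such a TSS. Named short genes had a median of 104 (451 genes) and unnamed ones a median of 12.9 (240 genes). Among genes with a TSS apart from the coding span, short genes stood 1.22 above the genes of 1000 to 3000 bp (log2 scale). By length, the median was 2.00 in the 19 genes under 100 bp, 10.9 in the 92 genes of 100 to 200 bp, 91.5 in the 142 genes of 200 to 300 bp, 79.6 in the 202 genes of 300 to 400 bp and 65.2 in the 236 genes of 400 to 500 bp (each class without its upper limit). Above 500 bp the class medians declined further with length, to 34.0 in the 462 genes of 3000 bp and over.

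**Figure D1:**
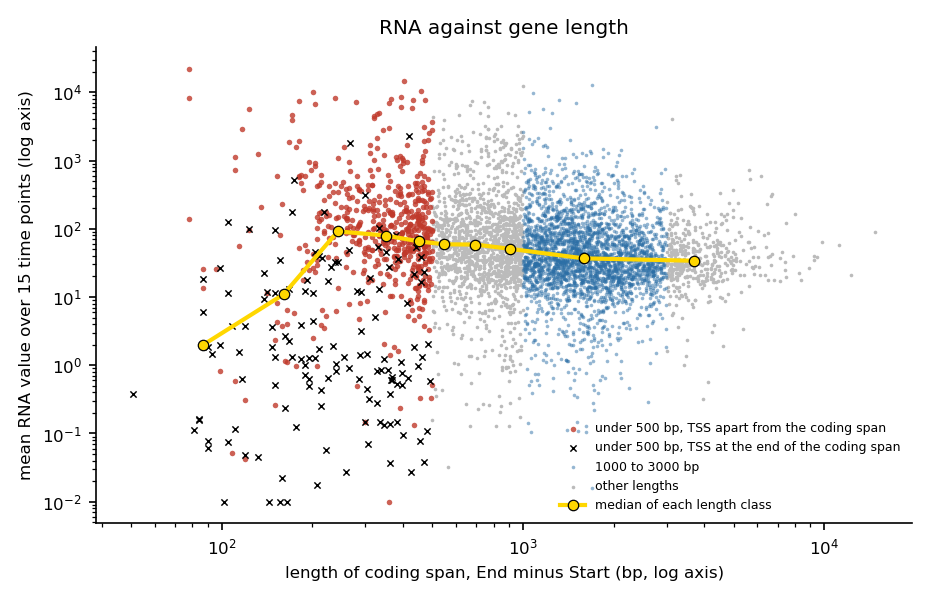
Mean RNA value over the 15 time points against the length of the coding span, both on log axes, with 1 point per listed gene. Red points and black crosses are the 691 short genes, with crosses for the 136 whose TSS is the upstream end of the coding span. Blue points are the 2958 genes of 1000 to 3000 bp. The yellow line joins the medians of length classes, which peak at 91.5 between 200 and 300 bp. The 5 genes with a mean of 0.01 or less are drawn at 0.01.

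The share of the whole RNA sum that fell on short genes lay between 28.7% at 10 min and 33.1% at 70 min. Genes of 1000 to 3000 bp had the opposite order, with 35.2% at 10 min and 29.1% at 70 min. The 25 short cytosolic ribosomal protein genes alone made up between 11.2% at 10 min and 17.6% at 70 min. The other 666 short genes had their largest share early, with 18.3% at 0 min and a lowest share of 15.2% at 120 min.

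The short members were also grouped by function, in 14 gene lists. Cytosolic ribosomal proteins had the highest median RNA of these lists. The 25 short members lay between 932 (RPS28B) and 22188 (RPL41A) with a median of 4947, against a median of 1440 in the 111 members of 500 bp and over. None of the 25 spanned over 4-fold. Their largest range was that of RPS26B, a small subunit protein, with values between 1612 and 4222 and a median of 3240. In 12 of them the highest value was at 70 min, as in 53 of the 111 longer ones, against 11.4% of all listed genes. Over time they had a median of 3915 at 0 min, 3705 at 10 min, 6347 at 70 min and 4941 at 140 min. Of the cell wall and stress proteins, 11 short genes had a median of 1237, led by CCW12 and with DDR2, a stress-induced gene, lowest at a mean of 17.6.

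The lists of the mitochondria, of basic nuclear machinery and of secretion had median RNA above the 65.3 of all short genes. The 28 short genes of the respiratory chain and ATP synthase had a median of 363, between 15.5 for CYC7 and 755 for CYC1, the minor and major isoforms of cytochrome c. In 14 of the 28 the highest RNA value was at the arrest, while 32.8% of all listed genes were highest there. The 12 short genes of mitochondrial import, among them TIM10 and TOM7, had a median of 290, and the 25 short mitochondrial ribosomal proteins one of 91.4. The 9 small subunits of RNA polymerases had a median of 250, from 111 for RPB11 to 607 for RPB10. The 12 Sm and Lsm proteins, which bind small nuclear RNAs or mRNA ends as rings, lay between 30.0 (LSM8) and 322 (LSM6). The 7 genes listed under secretion and glycosylation include subunits of the translocon and of oligosaccharyltransferase, and also KTI11. They lay between 108 (YOS1) and 1090 (SSS1). Of these 7 genes, 6 were highest at 70 min, against 11.4% of all listed genes. Over these 6 lists 1 gene spanned over 4-fold, STF1, which stabilizes the inhibited form of the ATP synthase. It was at 375 at 0 min, with a lowest value of 41.3 at 110 min and a median of 61.4.

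Small proteins of chromosomes and the cell cycle were at moderate levels. The 6 short DASH subunits, parts of the ring that ties kinetochores to microtubules, lay between 37.7 (SPC19) and 176 (DAD4) with a median of 67.3, against 28.7 to 35.8 in the 4 longer DASH subunits. The ranges of the 6 short ones did not pass 2.51-fold, with DAD3 the widest at 36.3 to 92.7 and a median of 71.3. Of 15 other small subunits, NBL1, a member of the chromosomal passenger complex, was lowest with a mean of 8.15 and CMD1, calmodulin, highest with 594. RFA3, the smallest subunit of the single-strand binding protein RPA, had the widest course of the 15, with 72.4 at 0 min, 279 at 20 min and a median of 172. The 6 seripauperins found, a family of cell wall proteins at chromosome ends, lay between 0.038 (PAU10) and 17.8 (PAU17), and 5 of the 6 were highest at 0 min, against the same 32.8% of all listed genes. They share much of their sequence, and the value of a single one is uncertain.

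**Figure D2:**
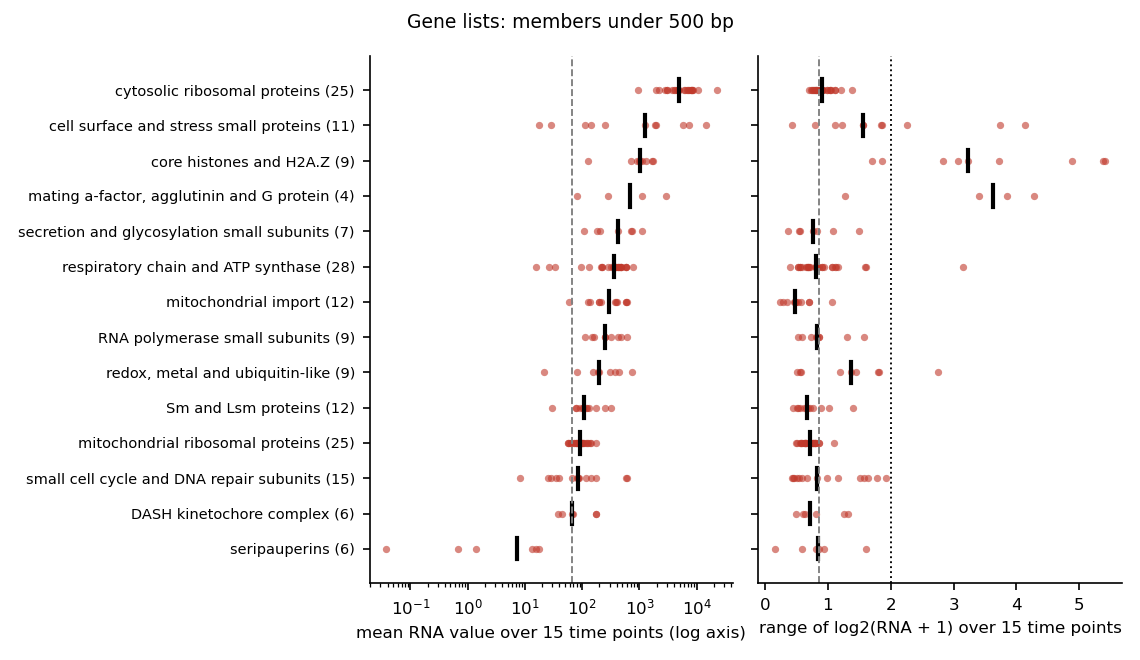
Mean RNA value over 15 time points (left, log axis) and range of log2(RNA + 1) (right) of the short members of 14 gene lists, 1 point per gene, with the number of members in brackets. Black bars are list medians, dashed grey lines the medians of all 691 short genes (65.3 and 0.86), and the dotted line a range of 4-fold. Histones and mating genes are the lists whose median range lies beyond it.

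On the log2(value + 1) scale, 67 short genes spanned over 4-fold (9.70%), against 265 genes of 1000 to 3000 bp (8.96%) and 8.91% of all listed genes. The shares depend on the added constant. With 0.1 it was 17.9% in short genes, against 10.2% in genes of 1000 to 3000 bp, and with 10 it was 6.22%, against 4.67%. Without the 0 min column 4.92% of the short genes passed, against 4.33% of the genes of 1000 to 3000 bp. Of the 67 genes, 42 had their highest value at 0 min, 8 at 10 min and 7 at 20 min. Over all short genes, RNA was highest at 0 min in 222, while 32.8% of all listed genes had their highest value there. RNA at the arrest was over 2-fold above the median of the other time points in 94 short genes (13.6%), against 11.0% of the genes of 1000 to 3000 bp and 11.3% of all. It was over 2-fold below in 38 short genes (5.50%), against 9.06% of the genes of 1000 to 3000 bp and 8.09% of all.

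The 8 core histone genes and HTZ1 are short, and their RNA was low at the arrest. Of these genes, the last of which encodes the variant H2A.Z, 7 spanned over 4-fold and all 9 were over 2-fold lower at the arrest than in the median of the other time points. HTB2 was at 31.8 at 0 min and 1401 at 20 min, with a median of 654. HTA2 was at 52.8 at 0 min and 2245 at 30 min, with a median of 908. HHF1 had 91.3 at 0 min, 2738 at 20 min, 289 at 60 min and 2223 at 80 min. HTA1 had 233 at 0 min and 1965 at 20 min, and HTB1 197 at 0 min and 2612 at 20 min. The second copies of H3 and H4 spanned less, HHT2 between 723 and 2627 and HHF2 between 399 and 2850. HHT1, the partner of HHF1, ran between 211 and 1983. In 6 of the 9 genes the highest value was at 20 min, and 0 of them peaked at the arrest. HTZ1 was lower and flatter, at 56.7 at 0 min, 188 at 30 min and a median of 137. The copies of H3 and H4 share most of their coding sequence, with 71.3% and 49.7% of unique 25-base stretches, and reads could have been divided between them.

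The short genes of mating had the opposite course. MFA1 was at 6797 at 0 min, 2182 at 10 min and 348 at 90 min, with a median of 605. MFA2 was at 12619 at 0 min and 1192 at 40 min, with a median of 1991. Later values of MFA2 were 3939 at 70 min and 3441 at 120 min. AGA2, the adhesion subunit of a-agglutinin, was at 1572 at 0 min and 108 at 100 min, with a median of 189. STE18, the gamma subunit of the pheromone-coupled G protein, had a smaller range, 168 at 0 min against a lowest value of 69.1 at 90 min. PRM3, which acts in the fusion of nuclei, was at 1238 at 0 min and 53.3 at 140 min, with a median of 112. All 5 had their highest value at the arrest, where α-factor was present.

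Some other short genes, such as TOS6, HSP12 and SPI1, had their highest value soon after release. TOS6, a gene for a cell wall protein, had the largest range of all short genes with a mean RNA of at least 10, with 3.61 at 0 min, 642 at 10 min, 77.0 at 50 min and 418 at 80 min, around a median of 230. HSP12, a small membrane-associated stress protein, had 94.3 at 0 min, 498 at 10 min and 27.3 at 130 min. SPI1, a protein of the cell wall, had 31.6 at 0 min, 141 at 10 min and 9.65 at 110 min. YMR030W-A, without another name, was highest late, with 0.320 at 10 min, 33.3 at 50 min, 4.43 at 80 min and 17.8 at 120 min. Its listed TSS is the upstream end of its coding span. ATG8, the ubiquitin-like protein of autophagosomes, was highest at the arrest, with 86.9 at 0 min and 12.1 at 60 min.

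One column stood apart in RNA. At 70 min 121 short genes had their highest value (17.5%), against 11.4% of all listed genes, while 14 short genes had it at 60 min and 13 at 80 min. Relative to the mean of 60 and 80 min, the 70 min value was higher in 69.6% of the short genes, with a median log2 ratio of 0.15, and in 72.1% of the genes of 1000 to 3000 bp, with a median of 0.08. CCW12 went the other way, with 15450 at 60 min, 9456 at 70 min and 16483 at 80 min, and YDR524C-B had 11340, 7739 and 10401 at the same times. The 2 replicates of this column cannot be looked at singly, and the cause was not tested.

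**Figure D3:**
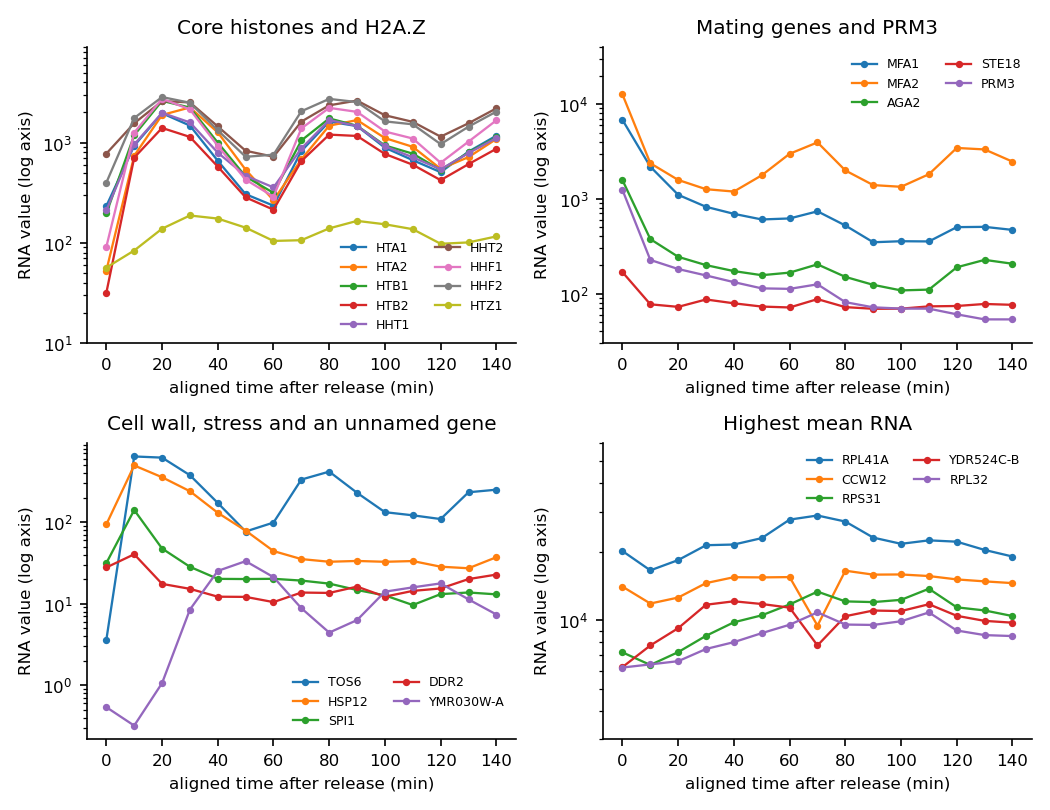
RNA value (log axis) at the 15 aligned time points of the core histones and HTZ1, the mating genes with PRM3, 5 genes of the cell wall, of stress or without another name, and the 5 short genes with the highest mean RNA. Each line is 1 gene and each point the merged value of the replicates, with histones low at 0 min and high at 20 to 30 min and the mating genes highest at 0 min, while CCW12 and YDR524C-B dip at 70 min.

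The sequence before the TSS of such genes was searched for short motifs on both strands, over 250 bases, in the R64 reference, which is of another strain than W303. The TATA element was searched as TATAAA. The stress response element was searched as AGGGG. The pheromone response element was searched as TGAAACA. Any pair of these can share at most 1 letter at an end. The TATA element was present before 42.3% of the short genes, 42.0% of the genes of 1000 to 3000 bp and 41.7% of all, and the stress response element before 23.9%, 19.1% and 19.8%. Among the 94 short genes with over 2-fold more RNA at the arrest, the TATA element was present before 53.2% and the stress response element also before 53.2%. Of the 632 genes of any length that were called so, 48.4% had the TATA element and 43.7% the stress response element. The pheromone response element preceded 7.45% of the 94 genes, 10.8% of the 632 and 6.14% of all listed genes. Among the 67 short genes that spanned over 4-fold, 61.2% had the TATA element and 47.8% the stress response element. These shares describe letters and not sites.

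Regions are shown for 3 of the genes above because they hold matches of TGAAACA or AGGGG. That of MFA1 was also searched for TGAAACA and held none. MFA2 (chrXIV:352103-352352, plus strand) and PRM3 (chrXVI:183280-183529, minus strand) each hold 1 match of TGAAACA on either strand, in capitals, and HSP12 (chrVI:106948-107197, plus strand) holds 2 of AGGGG, both on the opposite strand and so in capitals as the reverse complement. The last base before the TSS ends each line.
MFA2: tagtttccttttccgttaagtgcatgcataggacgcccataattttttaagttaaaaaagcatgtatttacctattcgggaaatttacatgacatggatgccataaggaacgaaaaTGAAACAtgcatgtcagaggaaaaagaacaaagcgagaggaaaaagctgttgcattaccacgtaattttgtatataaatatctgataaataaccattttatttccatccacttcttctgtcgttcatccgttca
PRM3: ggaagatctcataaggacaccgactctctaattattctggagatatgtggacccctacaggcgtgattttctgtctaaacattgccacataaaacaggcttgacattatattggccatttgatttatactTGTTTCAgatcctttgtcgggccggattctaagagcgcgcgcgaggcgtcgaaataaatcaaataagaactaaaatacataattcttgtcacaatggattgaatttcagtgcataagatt
HSP12: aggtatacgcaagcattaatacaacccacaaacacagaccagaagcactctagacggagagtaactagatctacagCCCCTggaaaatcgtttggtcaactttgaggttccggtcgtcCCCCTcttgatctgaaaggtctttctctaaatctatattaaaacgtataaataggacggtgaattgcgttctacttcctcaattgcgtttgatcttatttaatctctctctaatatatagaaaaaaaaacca
AGA2 also had 1 match of TGAAACA.

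Gene-body entropy measures how evenly nucleosome signal was spread along a window, as a Shannon entropy in natural log units. It is high where nucleosomes sit at many positions and low where they sit at few. Short genes had lower entropy, with a median of 5.62, against 5.80 in genes of 1000 to 3000 bp and 5.80 in all. The difference was -0.19. This difference varied with the size of the window, as given below, and its cause was not tested. An entropy cannot pass the log of the number of positions, so the deposited values limit how few positions could have been used. They do not show where these lay, and the window is not defined in the sources used here. In 136 short genes an entropy passed the log of the coding length (19.7%, against 2.43% of all listed genes). None of these is among the 136 with the TSS at the upstream end of the span. By contrast, 0 of the 5590 genes passed the log of the distance from TSS to PAS plus 1, with at most 500 positions. The values thus allow a window that starts at the TSS and ends at the PAS or after 500 positions.

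By this window, 314 short genes had fewer than 500 positions (45.4%), against 0 of the 2958 genes of 1000 to 3000 bp, whose shortest transcript was 585 bp. The 377 short genes with a full window had a median entropy of 5.77 and differed by -0.039 from the genes of 1000 to 3000 bp. The median was 5.47 in the 140 short genes with 400 to 500 positions, 5.31 in the 84 with 300 to 400, 5.06 in the 38 with 200 to 300, 4.82 in the 42 with 100 to 200 and 4.28 in the 10 with fewer. A shorter window thus had a lower entropy at each step. Set against the log of its own window, the entropy was lower by a median of 0.469 in short genes and 0.411 in genes of 1000 to 3000 bp. The shortfall was 0.649 in the windows of 400 to 500 positions, 0.523 in those of 300 to 400 and 0.156 in those under 100, where the RNA was lowest as well, with a median of 0.135. In 60 short genes the window also took in part of another coding span (8.68%), against 0.710% of the genes of 1000 to 3000 bp.

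Single genes show both ends. YJR151W-A, the shortest gene, had a mean entropy of 3.75, 0.205 under the log of its window. HMRA2 had a mean entropy of 3.84 and a nucleosome score of 0.002, 2.37 under its limit, with no unique sequence. RPL41A and RPL41B, with transcripts of 309 and 296 bp, were 1.18 and 1.19 under their limits, with means of 4.56 and 4.50. HSK3 and DAD3, DASH subunits of 210 and 285 bp with full windows, had a shortfall of 1.13 and 1.07, at means of 5.09 and 5.14. CCW12 and RPS31, by contrast, were within 0.202 and 0.172 of the limit. The 56 short genes with a mean RNA over 1000 had a median shortfall of 0.427, and the 79 with 300 to 1000 one of 0.571. In the genes of 1000 to 3000 bp the shortfall was 0.173 for the 34 genes with an RNA over 1000 and 0.323 for the 146 with 300 to 1000.

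**Figure D4:**
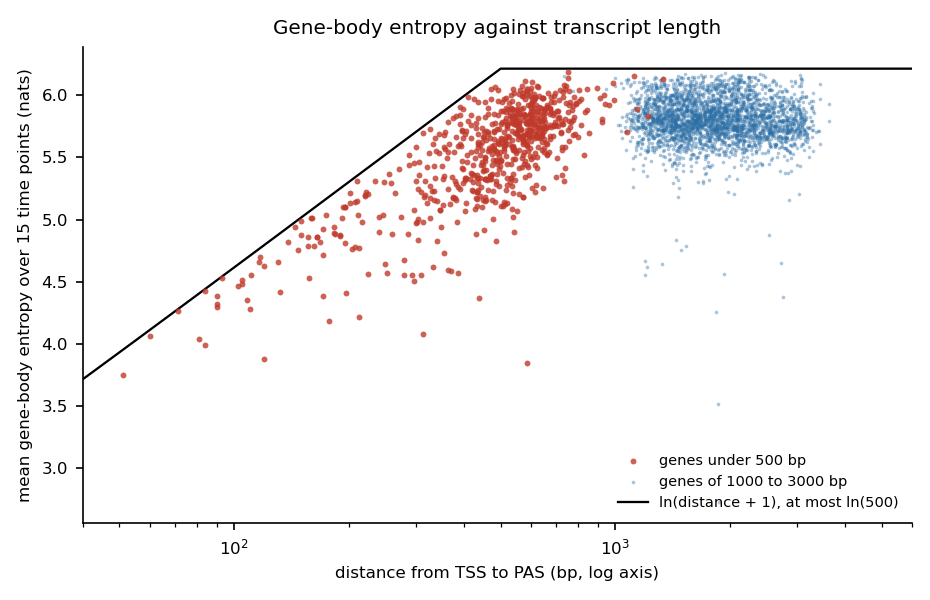
Mean gene-body entropy over 15 time points (natural log units) against the distance from TSS to PAS (log axis), with 1 point per gene for the 691 short genes (red) and the 2958 genes of 1000 to 3000 bp (blue). The black line is the log of the distance plus 1, at most the log of 500, and 0 genes lie above it, while short genes with under 500 positions follow its slope.

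Entropy was higher in S phase in most short genes, by a smaller margin than in longer genes. Entropy was standardized for each gene over its 15 time points, and the mean z-score at 20 and 30 min was set against that at 0, 10, 50 and 60 min. The difference had a median of 1.27 in short genes, 1.62 in genes of 1000 to 3000 bp and 1.57 in all. It was above 0 in 622 short genes (90.0%), against 95.6% of the genes of 1000 to 3000 bp and 95.1% of all listed genes. For the second S phase, the columns at 80 and 90 min were set against those at 70, 110, 120 and 130 min, and the medians were 0.78 in short genes and 1.03 in genes of 1000 to 3000 bp. It was above 0 in 589 short genes (85.2%), against 91.6% of all. Both differences were above 0 in 549 short genes (79.5%), against 90.3% of the genes of 1000 to 3000 bp and 88.7% of all, and both were below 0 in 29 (4.20%), against 1.86% and 1.97%. Entropy was highest at 20 or 30 min in 341 short genes (49.3%), against 58.4% of all listed genes, and at 0 min in 53 (7.67%), against 4.62% of all.

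Among the short genes the classes of 200 bp and over had a larger margin than those below. In the first cycle the median was 0.84 in the 19 genes under 100 bp, 0.71 at 100 to 200 bp, 1.20 at 200 to 300 bp, 1.31 at 300 to 400 bp and 1.50 at 400 to 500 bp, against 1.56 in the 248 genes of 500 to 600 bp, 1.61 at 600 to 800 bp and 1.50 at 800 to 1000 bp. Short genes with full windows had 1.38, and those with a TSS apart from the coding span also 1.38. In short genes with a mean RNA over 1000 it was 0.95, against 0.91 in such genes of 1000 to 3000 bp. In short genes a low value was not particular to high RNA, since those with an RNA of 1 to 10 had 0.92 and those with 10 to 30 had 1.15, against 1.60 and 1.70 in genes of 1000 to 3000 bp. The 25 short ribosomal protein genes had 0.81 and the 111 longer ones 1.06.

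DIB1, a protein of the spliceosome, and HTA1 had the largest differences by the smaller of both cycles. DIB1 had an entropy of 5.84 at 30 min and 5.83 at 90 min, against 5.72 at 50 min and 5.70 at 70 min. HTA1 had 6.03 at 30 min and 6.01 at 80 min, against 5.79 at 0 min and 5.78 at 60 min, while its RNA was highest at 20 min in the first cycle and at 80 min in the second. All 6 short DASH genes had higher entropy in S phase of both cycles, as did 88.7% of all listed genes. Their median difference in the first cycle was 1.36, against 2.20 in the 4 longer DASH genes and 1.57 in all listed genes. SPI1 and YHR007C-A had the largest differences in the other direction. SPI1 had 5.86 at 20 min and 5.90 at 30 min, against 6.03 at 60 min, and YHR007C-A had 4.92 at 30 min, against 5.07 at 60 min. MFA1 and MFA2 were also among the 29 genes below 0 in both cycles. MFA1 had 4.85 at 0 min, 4.51 at 40 min and 4.76 at 140 min, and its entropy was thus highest at the time of its highest RNA. HHF2 had a difference of -1.27 in the first cycle, the opposite of HHF1 with 2.47, and for both the unique sequence is limited.

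The nucleosome score of the gene body did not separate the length classes. The mean score had a median of 0.0495 in short genes, 0.0499 in genes of 1000 to 3000 bp and 0.0493 in all, a log2 ratio of -0.014 whose sign turned in 5 of 10 alternatives. Its spread was wider in short genes, with percentiles 10 and 90 of 0.0274 and 0.0862, against 0.0328 and 0.0751. MFA1 had a mean of 0.124, PRM3 0.108 and LSM8 0.106, while HHF1 had 0.015 and RPS28B 0.017. The unique sequence of HHF1 is limited, as given above, and its score is uncertain. The 56 short genes with an RNA over 1000 had a median of 0.0332 and the 34 such genes of 1000 to 3000 bp one of 0.0335. Over time the median of the short genes lay between 0.0472 at 10 min and 0.0519 at 130 min, and that of the genes of 1000 to 3000 bp between 0.0491 at 40 min and 0.0517 at 130 min. The short ribosomal protein genes had their lowest median, 0.0245, at 50 min.

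The promoter subnucleosome score is, by its name, a measure of fragments smaller than a nucleosome near the start of a gene, such as transcription factors leave. Its mean had a median of 0.0203 in short genes and 0.0234 in genes of 1000 to 3000 bp, a log2 ratio of -0.20. The ratio was -0.089 without the genes whose TSS is the upstream end of the coding span. Short genes of this kind had a median score of 0.00871 and, as given above, little RNA. The ratio was -0.013 among genes with full windows. The short genes with full windows are those with longer transcripts. They also had a median RNA of 102, against 36.8 in the genes of 1000 to 3000 bp. The parts of annotation, RNA and transcript length in this were not tested. At a like RNA of 10 to 100, however, short genes stood lower, with a log2 ratio of -0.45. The median was 0.0173 in the 185 short genes with an RNA of 30 to 100, against 0.0243 in the 1167 such genes of 1000 to 3000 bp, and 0.0388 against 0.0390 in those with an RNA over 1000. In both classes the score was higher in genes with more RNA, with a Spearman correlation over genes of 0.47 in short genes and 0.40 in genes of 1000 to 3000 bp. Genes share the same libraries here and are not independent.

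MFA2 had the highest promoter score of the short genes, with values between 0.0763 and 0.104 and a median of 0.0849. YBR196C-A followed with a mean of 0.0821 at a low RNA mean of 11.4, and its TSS was the upstream end of its coding span. PRM3 had 0.0894 at 0 min and 0.0585 at 130 min, and was thus highest where its RNA was highest. TOS6 had 0.0062 at 0 min, 0.0176 at 20 min and 0.0119 at 80 min, while its RNA was highest at 10 min. HTA1 had 0.0349 at 20 min and 0.0310 at 80 min, against 0.0192 at 50 min. HSP12 stayed low, between 0.0028 and 0.0046, while its RNA spanned 17.6-fold on the scale of value + 1. RRT15 and YAL064C-A had the lowest means of the short genes. The medians of both length classes were lower late in the time course, in short genes to 0.0167 at 130 min, against 0.0231 at 0 min, or 27.6% lower, and in genes of 1000 to 3000 bp to 0.0192 at 130 min, against 0.0265 at 0 min, or 27.4% lower. The short ribosomal protein genes had a median of 0.0386 at 0 min, 0.0384 at 120 min and 0.0445 at 50 min.

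**Figure D5:**
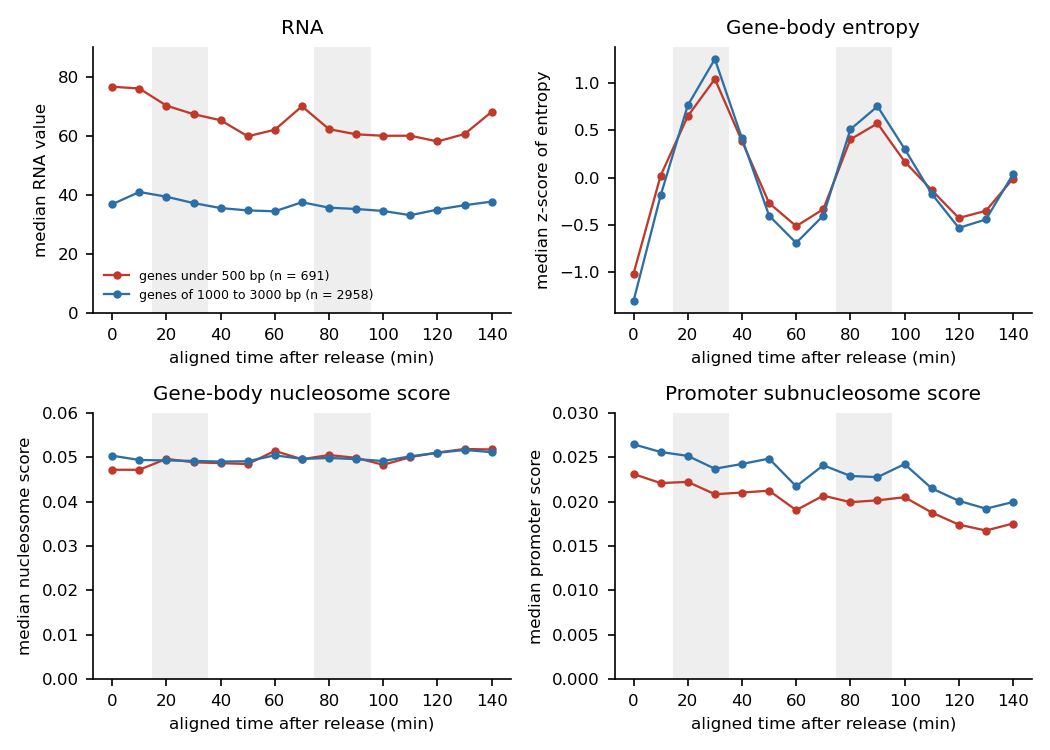
Medians over genes at the 15 aligned time points of RNA value, z-score of gene-body entropy, gene-body nucleosome score and promoter subnucleosome score, for the 691 short genes (red) and the 2958 genes of 1000 to 3000 bp (blue). Grey bands mark the columns taken as S phase (20, 30, 80 and 90 min), where the entropy of short genes has a lower peak, 1.05 at 30 min, against 1.26.

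Within genes, RNA and entropy were more closely related among genes with a large RNA range. For each gene, log2(RNA + 1) was correlated with entropy over the 15 time points, after the median course of all genes had been taken off both. In the 67 short genes that spanned over 4-fold the median Pearson correlation was 0.66, and it was above 0 in 55, against 0.60 and 219 of 265 in genes of 1000 to 3000 bp, and 80.5% above 0 among all such genes. With a constant of 0.1, by which more genes span over 4-fold, the medians were 0.28 in short genes and 0.59 in genes of 1000 to 3000 bp, so that their order turned. Over all 691 short genes the median was 0.11. With the nucleosome score the median was -0.43 in the 67 genes and -0.58 in the 265. With the promoter score it was 0.36 in the 67 genes and 0.55 in the 265. The points of a gene are successive times of the same cultures and share their libraries across genes.

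The arrest column added to this relation in both length classes. Without the 0 min column, the same 67 genes had a median correlation of RNA with entropy of 0.39, and 49 were above 0. The 265 genes of 1000 to 3000 bp had 0.46, and 206 were above 0. Among the 42 short genes with their highest RNA at the arrest the median was 0.69 with that column and 0.41 without it. In the other 25 it was 0.32 with and without it. Of the genes of 1000 to 3000 bp, the 100 with their highest RNA at the arrest had 0.64 with and 0.35 without that column. The other 165 had 0.58 with and 0.57 without it, above the 0.32 of the short genes. Of the 67 short genes, PRM3 had a correlation of 0.92, ATG8 0.90, HTA1 0.85 and STF1 0.83, while HSP12 had -0.56. HHT2 had -0.77 but is not one of the 67, since its RNA ran only between 723 and 2627. Its unique sequence is also limited.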

How the data were processed

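Total RNA-seq and MNase-seq values of 5590 genes at 15 aligned time points were used, from 59 libraries. By the methods of the study and the submitters' notes, reads were aligned to sacCer3/R64 with Bowtie 0.12.7, MNase fragments with 1 mapping place were kept, subsampled within each replicate to the same number per fragment length at every time point, and merged. The later labelled times of replicate 1 were moved 10 min earlier by the authors. The RNA level deposited by the authors is called TPM and was handled as a score, since the columns sum to 949828 to 1041380. Its aligner settings, counting and length divisor are not given in the sources used here, nor is the use of strand. Entropy is a score computed by the authors from nucleosome scores. The nucleosome and promoter scores deposited by the authors are signal values. Depth per gene is unknown.

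The coding length was End minus Start, which includes introns (35 short genes had one by RefSeq). Coordinates of 688 short genes were found in RefSeq R64 and were identical after adding 1 to the start. Medians, shares and ranges were computed in Python 3.11.15 with numpy 2.4.6, pandas 2.3.3 and scipy 1.17.1, with a constant of 1 added before logs. Figures were drawn with matplotlib 3.10.9. With merged columns no replicate test could be made, and no resampling over genes was used. A shift was named by the spread over genes: an alternative counted as moved where it left the order-statistic 95% interval of the median over genes, which is a yardstick only, since genes are not independent. The statistics were tested on simulated data.

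The members and the gene lists were chosen with earlier results of these data known. Genes named were the 5 with the highest RNA, the 6 with the largest RNA range at a mean of at least 10, the 2 lowest in entropy and nucleosome score, the 2 at each end of promoter score and S phase difference, the 3 shortest, those next to 500 bp, the highest, lowest and widest of each of 14 lists, and all histone, DASH and mating genes, with others noted as chosen after their values were seen. Of the listed names, CUP1-1, CUP1-2 and 18 seripauperins were not analysed here. Other choices of genes, time points, constants and scaling were tried.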

Additional observations from a re-analysis of the deposited data

How the results depend on the processing

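With other sets of genes, scales or constants, the RNA difference of 0.81 (log2) between short genes and genes of 1000 to 3000 bp was 1.40 among named genes, 0.43 with means over genes, 1.25 at a mean RNA of at least 5, and, chosen after seeing the data, 1.45 with full windows, 1.22 with a TSS apart from the coding span and 0.42 after scaling from coding to transcript length. The share of short genes over 4-fold (9.70%) was 17.9% with a constant of 0.1 and 6.22% with 10. The entropy difference of -0.19 was -0.38 for genes under 400 bp, -0.11 for named genes, -0.30 with means, -0.10 at an RNA of 10 to 100, -0.039 with full windows, -0.13 with a TSS apart and -0.059 against the limit of each window. The promoter ratio of -0.20 was -0.10 for named genes, -0.45 at an RNA of 10 to 100, -0.013 with full windows and -0.089 with a TSS apart. The S phase difference of 1.27 was 1.47 for named genes, 1.38 with full windows, 1.38 with a TSS apart and 0.052 in entropy units, and that of the second cycle, 0.78, was 0.032 in entropy units. The RNA with entropy correlation of 0.66 was 0.28 with a constant of 0.1 (0.59 in genes of 1000 to 3000 bp), and the 136 genes above the log of their length were 83 among named genes. The cause was not tested.

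Leaving out 1 time point in turn gave 0.80 to 0.82 for RNA, 4.92% to 9.70% for the range (lowest without 0 min), -0.19 to -0.18 for entropy, -0.21 to -0.19 for the promoter score, 1.06 to 1.56 and 0.70 to 0.86 for the S phase differences, 0.50 to 0.67 for the correlation and 131 to 136 genes for the limit. For the correlation, the genes over 4-fold were chosen anew each time, and the same 67 genes had 0.39 without 0 min. The nucleosome score ratio lay between -0.040 and 0.031 over all alternatives. No paired analysis was possible because each deposited value already joins both replicates. Depth per gene is unknown, and 0 in a merged column does not show absence.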
